A study of Homo sapiens with 64 samples.

Results

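The response of H460 to MYCi975 was measured in 8 libraries, 4 from cells given 5 µM MYCi975 and 4 from cells given vehicle (DMSO). They are all the libraries of these 2 groups among the 64 of the series and were chosen by the line, treatment and replicate in their labels, with no measured value. H460 is an established human non-small cell lung cancer line. Both groups were grown in the same serum-supplemented medium, dosed a day after plating and collected after 24 hours. Total RNA was made into stranded libraries. No genetic change separates the groups, and the labels do not say whether replicates came from separate cultures, so the p-values given reflect only the variation among these libraries, which may be technical. The series, which concerns MYC and class IIa HDAC inhibition and mitochondrial function in lung cancer, also holds TMP195 and combination libraries of H460 and the same treatments in H838, H1703 and H1755.

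MYC is a transcription factor that binds DNA as a dimer with MAX and drives genes of ribosome production, nucleotide synthesis and the cell cycle. MYCi975 is a small molecule described as binding MYC, disturbing its pairing with MAX and promoting its degradation. A related pair of factors, MondoA (gene MLXIP) and MLX, binds E-box sites in response to glucose metabolites and drives TXNIP and ARRDC4. When amino acids run short or mitochondria or the endoplasmic reticulum are stressed, kinases phosphorylate the initiation factor eIF2, translation of ATF4 increases, and ATF4 with its partners drives amino acid synthesis, uptake and tRNA charging genes. This programme is called the integrated stress response.

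The 8 libraries held 21776154 to 34236552 counted reads. Replicates 1 and 2 of both groups differed from replicates 3 and 4 in which genes held counts, and the reason is not given in the sources used here. EEF1G, a translation elongation factor gene, had 14441 to 20836 counts in the 4 libraries of replicates 1 and 2 and 0 in the 4 of replicates 3 and 4. In all, 797 genes had at least 10 counts in every library of replicates 1 and 2 and 0 in all of replicates 3 and 4, and 0 genes showed the opposite. Of the 742 of these with a position, 709 shared exon bases with another gene, against 8550 of 16254 among genes with at least 10 counts in all 8 libraries. Each MYCi975 library was compared with the vehicle library of the same number. Whether counting used strand is not given in the sources used here. Of the 157 genes named, 56 share exon bases with a gene on the opposite strand and 20 with one on their own, so that their reads may belong in part to the partner. DDIT3 and MARS1, both given below, overlap each other on opposite strands, and ALDH1L2, SLC6A9, SHMT2, MTHFD2, WARS1, JUNB, LONP1, HSPE1, TSC22D3, PLK1, KIF20A, MCM2 and ATF5 overlap other genes of the opposite strand. Mitochondrially encoded RNA made up 18.5, 17.4, 22.4 and 11.9% of the counts in MYCi975 replicates 1 to 4, against 17.6, 17.7, 20.3 and 11.4% in vehicle replicates 1 to 4, so that replicate 4 was low in both groups. Keratins marked the libraries as epithelial, with at least 27998 counts of KRT8 and 14596 of KRT19 in each, while EPCAM had at most 9 counts and CDH1 at most 3. The 5 endothelial markers had under 10 counts in every library.

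After 24 hours with MYCi975, genes of amino acid supply and secreted stress factors were higher, and TXNIP had the largest fall, followed by ARRDC4 among genes of at least 5 CPM (counts as a share of the library's TMM-scaled total). Of 19891 genes tested, 1066 (5.36%) passed an adjusted p of 0.05, 847 higher (4.26%) and 219 lower (1.1%). The median log2 fold change was 0.58 among those that rose and -0.40 among those that fell, and -0.01 over all genes tested. All 4 pairs were higher for 819 of the 847 and all 4 were lower for 214 of the 219. The 2 groups did not overlap for 1317 of all genes tested (6.62%) and for 637 of those called. Without replicates 1, 2, 3 and 4 in turn the edgeR fit called 410, 461, 1440 and 689 genes, of which 27, 40, 404 and 98 were lower. Without the replicate number in the fit edgeR called 0 genes, with 1694 at an unadjusted p below 0.05, and DESeq2 called 371. With a term for replicates 1 and 2 against 3 and 4 in place of the number edgeR called 36.

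The promoters of 4 genes are shown, TXNIP with the largest fall, its relative ARRDC4, CHAC1 with the largest rise and ASNS, a much-used readout of ATF4. The sequences are from RefSeq on GRCh38.p14, each from 250 bases before the gene's start to 50 after, on the gene's own strand. The TXNIP window lies at chr1:145996530-145996829 (minus strand), ARRDC4 at chr15:97960453-97960752 (plus), CHAC1 at chr15:40953221-40953520 (plus) and ASNS at chr7:97872359-97872658 (minus). RefSeq lists 2 windows each for TXNIP and ASNS, and the one holding a motif is printed. Capitals mark the matches. In TXNIP it is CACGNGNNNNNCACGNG, a tandem E-box of the form read by MondoA and MLX, 88 bases before the start, which 0.057% of all 35116 promoter windows hold. In ARRDC4 it is the single E-box CACGTG, 210 bases before the start, held by 7.26% of windows. In CHAC1, read on the opposite strand, and in ASNS it is TGATGNAA, the core of the element bound by ATF4 with C/EBP partners, 209 and 68 bases before the start, held by 3.62% of windows. Both strands were searched for each motif, and the E-box can lie within the tandem form. A match is a description of these letters.
TXNIP: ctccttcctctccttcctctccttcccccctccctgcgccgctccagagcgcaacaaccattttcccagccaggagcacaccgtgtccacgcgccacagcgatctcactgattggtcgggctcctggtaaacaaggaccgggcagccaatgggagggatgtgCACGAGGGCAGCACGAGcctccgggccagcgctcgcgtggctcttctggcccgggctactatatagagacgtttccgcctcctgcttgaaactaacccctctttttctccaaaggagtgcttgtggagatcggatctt
ARRDC4: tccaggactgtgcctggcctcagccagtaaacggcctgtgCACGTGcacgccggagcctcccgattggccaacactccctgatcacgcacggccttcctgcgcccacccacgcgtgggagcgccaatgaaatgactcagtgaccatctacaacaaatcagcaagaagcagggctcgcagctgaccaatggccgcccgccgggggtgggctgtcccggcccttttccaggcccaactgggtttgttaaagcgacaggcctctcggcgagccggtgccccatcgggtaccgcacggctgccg
CHAC1: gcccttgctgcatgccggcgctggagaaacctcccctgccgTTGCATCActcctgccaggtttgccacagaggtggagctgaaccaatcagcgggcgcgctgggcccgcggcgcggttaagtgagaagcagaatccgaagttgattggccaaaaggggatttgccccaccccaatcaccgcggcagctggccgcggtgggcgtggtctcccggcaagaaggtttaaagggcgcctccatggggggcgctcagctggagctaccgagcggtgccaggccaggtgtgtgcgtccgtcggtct
ASNS: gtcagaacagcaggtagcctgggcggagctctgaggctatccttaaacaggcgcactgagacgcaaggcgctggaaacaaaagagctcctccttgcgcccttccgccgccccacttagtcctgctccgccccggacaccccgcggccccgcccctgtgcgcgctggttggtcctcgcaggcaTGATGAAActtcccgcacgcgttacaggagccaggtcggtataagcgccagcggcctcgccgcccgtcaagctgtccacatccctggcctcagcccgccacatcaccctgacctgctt

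TXNIP, an arrestin-fold protein that restrains glucose uptake, had 2.75, 2.98, 4.89 and 2.46 CPM in MYCi975 libraries, against 19.4, 18.2, 24.0 and 19.2 CPM in vehicle libraries. The highest MYCi975 library lay far below the lowest vehicle library. The log2 fold change was -2.65 ± 0.12 (standard error, as throughout, 4 libraries against 4, adjusted p = 3.52e-08). ARRDC4, its closest relative, had 3.2, 3.26, 4.71 and 3.11 CPM with MYCi975, against 10.1, 10.3, 10.0 and 11.6 CPM with vehicle, again without overlap, and fell by 1.56 ± 0.14 (adjusted p = 5.36e-05). Replicate 3 was the highest MYCi975 library for both genes. Within replicates 1 and 2 the values were -2.73 for TXNIP and -1.66 for ARRDC4, and within replicates 3 and 4 they were -2.59 and -1.47. ARRDC3, another arrestin-fold gene, did not pass the test. It had 54.0, 48.8, 53.7 and 61.1 CPM with MYCi975 and 50.2, 46.2, 53.9 and 56 CPM with vehicle (0.08 ± 0.07, adjusted p = 0.612), and 2 of the 6 tested genes of the TXNIP and ARRDC4 list were called in all. The RNA of the factors themselves did not pass the test, at -0.08 ± 0.07 for MLXIP and -0.03 ± 0.07 for MLX (adjusted p = 0.569 and 0.888). The value for MLX was 0.02 without replicate 2.

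**Figure D1:**
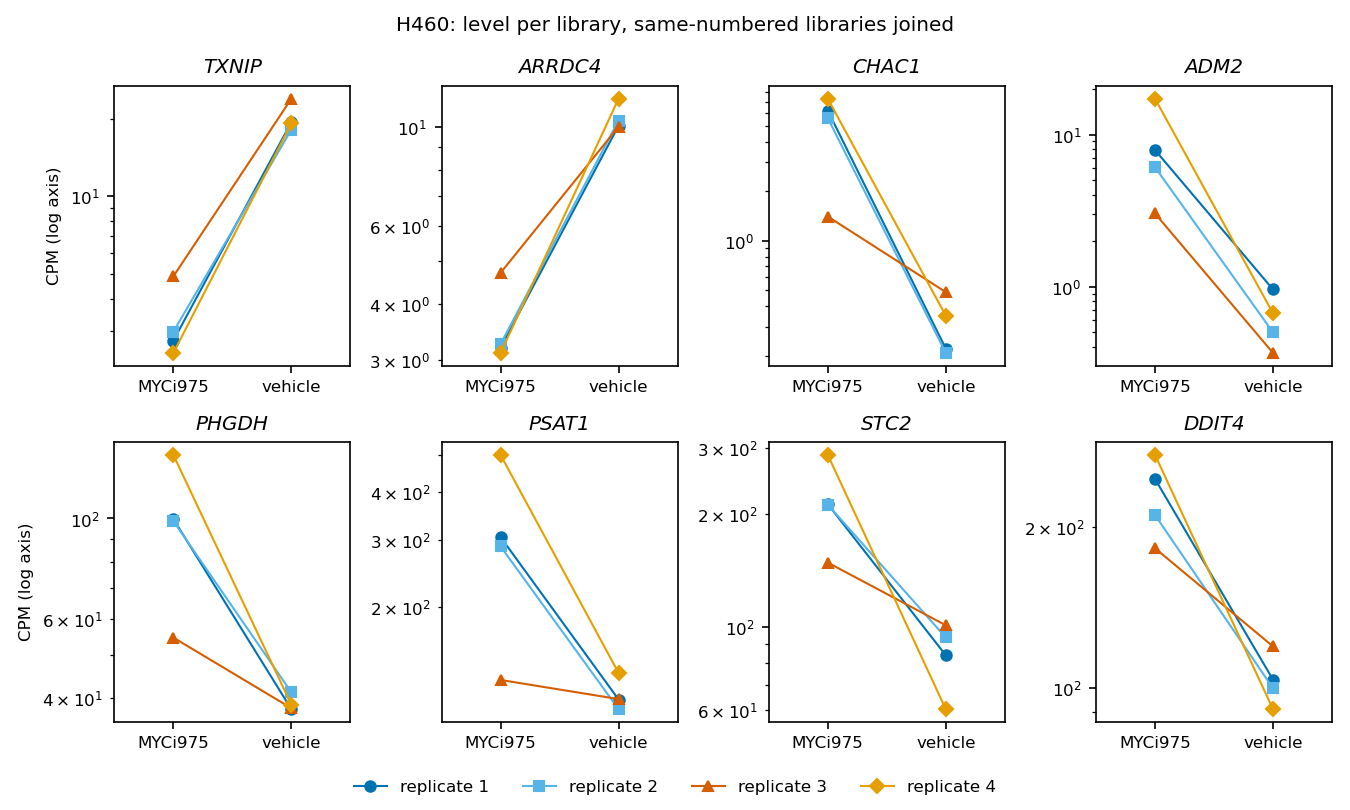
CPM (log axis) of 8 genes in each H460 library, MYCi975 on the left and vehicle on the right, with lines joining libraries of the same replicate number. TXNIP and ARRDC4 are lower in all 4 pairs, and the 6 stress genes are higher in all 4. The flattest line is in replicate 3 for each of these but ADM2, where replicates 1 and 3 are about equal.

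MYC RNA itself was 135, 149, 163 and 121 CPM with MYCi975 and 160, 191, 184 and 136 CPM with vehicle. It was lower in all 4 pairs, but the groups overlapped and the difference did not pass the test (-0.24 ± 0.07, adjusted p = 0.0698). It passed in the fit of 12 libraries with TMP195 (adjusted p = 0.0257) and in replicates 1 and 2 alone (-0.30, adjusted p = 5.31e-04), and not in replicates 3 and 4 alone (-0.17, adjusted p = 0.648). MYCi975 acts on the protein, so this level does not check the labels. None of the 14 tested genes of the MYC, MAX and MXD network passed, and their log2 fold changes lay between -0.24 and 0.04, with MAX at -0.06 ± 0.07 (adjusted p = 0.677). At an unadjusted p below 0.05 the network held 1 gene, MYC, and DESeq2 called 0. In the lists of ribosome production, the CCT chaperonin and nucleotide and polyamine synthesis few genes passed. Cell cycle genes, which MYC also drives, are given further below, with 15 of 98 lower. Of 49 ribosome biogenesis genes 0 were called, although 45 had values below 0 (median -0.11, lowest -0.44). Of 78 cytosolic ribosomal protein genes 0 were called and 74 had values above 0 (median 0.13), and likewise 0 of 15 RNA polymerase I genes and 0 of 8 subunits of the CCT chaperonin. At an unadjusted p below 0.05 there were 10, 17, 3 and 3 in these 4 lists, and DESeq2 called 0 in each. The share of all genes tested below that unadjusted p is not reported here. Without replicate 3, 5 ribosome biogenesis genes fell. Among 22 nucleotide synthesis genes 1 rose, CTPS1, which makes CTP (0.43 ± 0.12, adjusted p = 0.049). Among 10 polyamine genes 1 rose, SMOX, a spermine oxidase (0.74 ± 0.16, adjusted p = 0.0128). Over all genes tested 4.26% rose. The CTPS1 call was lost without replicate 1, 2 or 4, in DESeq2 and with scaling that leaves out mitochondrial RNA, and the SMOX call without replicate 2 and in DESeq2.

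Of 9 tested transcription factors of the integrated stress response and their partners 6 rose and 0 fell, with a median of 0.72. ATF4, the central activator, had 338, 321, 258 and 401 CPM in MYCi975 libraries and 236, 231, 216 and 193 CPM in vehicle libraries, without overlap, and rose by 0.57 ± 0.10 (adjusted p = 0.00441). DDIT3, which encodes the pro-apoptotic partner CHOP, rose by 0.79 ± 0.14 and CEBPG, a dimer partner of ATF4, by 0.72 ± 0.11. ATF3, a repressor induced by ATF4, rose by 1.40 ± 0.23, and JDP2, a related bZIP factor, by 1.26 ± 0.18. TRIB3, a pseudokinase that restrains ATF4, rose by 0.73 ± 0.14 (adjusted p = 0.00606), a call that DESeq2 did not make. ATF5 had 28.9, 27.3, 27.6 and 49.6 CPM with MYCi975 and 26, 30.5, 25.9 and 27.5 CPM with vehicle, so that replicate 4 alone stood above the rest (0.24 ± 0.13, adjusted p = 0.317). Among 14 genes of the eIF2 kinases, phosphatase subunits and translation brakes, 2 rose, against 4.26% of all genes tested. PPP1R15A, the subunit that directs the phosphatase to eIF2, rose by 0.92 ± 0.16, and EIF4EBP1, a repressor of cap-dependent translation, by 0.78 ± 0.13.

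The largest fold change of all genes tested was in CHAC1, an enzyme that degrades glutathione. It had 6.19, 5.57, 1.4 and 7.31 CPM with MYCi975 and 0.221, 0.208, 0.488 and 0.351 CPM with vehicle. The groups did not overlap, but MYCi975 replicate 3 was well below the other 3 libraries. The log2 fold change was 3.93 ± 0.36 (adjusted p = 6.77e-05), with 4.74 within replicates 1 and 2 and 3.16 within replicates 3 and 4. Of the 14 tested enzymes in its list, 6 rose and 1 fell. CBS and CTH, the enzymes that turn homocysteine into cysteine, rose by 1.64 ± 0.21 and 0.94 ± 0.18, GPT2, a mitochondrial alanine transaminase, by 1.14 ± 0.19 and PYCR1, which makes proline, by 0.58 ± 0.08. The member that fell was GCLC, the catalytic subunit of the first enzyme of glutathione synthesis (-0.49 ± 0.09, adjusted p = 0.00594). ASNS, the asparagine synthetase, had 182 and 183 CPM in MYCi975 replicates 1 and 2 and 41.4 and 51.0 CPM in vehicle replicates 1 and 2. In replicates 3 and 4 it was counted at 1.1 and 5.0 CPM with MYCi975 and 0.65 and 0.877 CPM with vehicle, as one of the genes that differed between these replicates. ASNS shares exon bases on its own strand with another annotated gene, whose part in this was not tested. It was higher with MYCi975 in all 4 pairs (1.98 ± 0.13, adjusted p = 1.73e-06), with 1.99 within replicates 1 and 2 and 1.81 within replicates 3 and 4. The CTH call was lost without replicate 2 and in DESeq2.

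Of 12 tested serine and folate one-carbon enzymes 6 rose and 0 fell. PHGDH, which commits glycolytic carbon to serine, had 99.7, 98.7, 54.5 and 138 CPM with MYCi975, against 37.9, 41.3, 38.1 and 38.8 CPM with vehicle, and rose by 1.26 ± 0.14 (adjusted p = 3.33e-04). The vehicle libraries were nearly level, so the spread lay in the MYCi975 libraries, with replicate 3 lowest and replicate 4 highest. PSAT1, the next enzyme, had 305, 288, 129 and 500 CPM with MYCi975 and 115, 108, 115 and 134 CPM with vehicle, and here MYCi975 replicate 3 lay within the vehicle range (1.23 ± 0.19, adjusted p = 0.00173). PSPH, which completes serine synthesis, rose by 0.52 ± 0.14, the mitochondrial folate enzymes SHMT2 and MTHFD2 by 0.57 ± 0.12 and 0.65 ± 0.12, and ALDH1L2, which oxidises formyl-folate in mitochondria, by 1.89 ± 0.23. PCK2, the mitochondrial PEP carboxykinase that feeds serine synthesis when glucose is scarce, had 43.7, 42.4, 17.1 and 85.4 CPM with MYCi975 and 12.2, 13, 11.8 and 11.2 CPM with vehicle and rose by 1.78 ± 0.24 (adjusted p = 8.12e-04). The SHMT2 call was lost without replicate 1 or 2 and in DESeq2, the PSPH call without replicate 1, 2 or 4 and the MTHFD2 call without replicate 2.

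Genes that charge tRNAs in the cytosol rose in part, with 9 of 20 called higher and 0 lower (median 0.24). The largest were WARS1 for tryptophan (0.94 ± 0.15), CARS1 for cysteine (0.81 ± 0.11), GARS1 for glycine (0.79 ± 0.12), SARS1 for serine (0.78 ± 0.13) and MARS1 for methionine (0.71 ± 0.11). Without replicate 1 the number called was 5. The 17 synthetases of mitochondria had 0 called in either direction, with values from -0.19 to 0.17 (1 at an unadjusted p below 0.05, and 0 called in DESeq2). Of 15 tested amino acid transporters of the plasma membrane 7 rose and 0 fell. SLC6A9, a glycine transporter, had 4.92, 4.82, 1.93 and 7.06 CPM with MYCi975 and 0.626, 1.12, 1.02 and 0.807 CPM with vehicle and rose by 2.33 ± 0.28 (adjusted p = 4.23e-04). SLC7A2, which carries arginine and lysine, rose by 0.87 ± 0.10, SLC1A4, for serine and alanine, by 0.83 ± 0.13, SLC38A2, for glutamine and other neutral amino acids, by 0.80 ± 0.12 and SLC7A5, for large neutral amino acids, by 0.42 ± 0.09. Without replicate 1 or 2, 4 transporters were called, SLC7A5 no longer among them. SLC7A11, the cystine importer, is also an ATF4 target and had 718, 758, 664 and 760 CPM with MYCi975 and 674, 641, 692 and 765 CPM with vehicle, groups that overlapped (0.07 ± 0.08, adjusted p = 0.703).

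Among 14 genes that restrain mTORC1, the amino acid and growth factor sensing kinase complex, 3 rose and 1 fell. DDIT4, an inhibitor induced by stress, had 247, 211, 183 and 273 CPM with MYCi975 and 104, 99.8, 120 and 91.2 CPM with vehicle, without overlap (1.13 ± 0.12, adjusted p = 1.71e-04). SESN2, a leucine sensor, rose by 1.30 ± 0.23, which DESeq2 did not call, and DDIT4L by 0.48 ± 0.12, a call lost without replicate 1, 2 or 4. CASTOR2, a paralogue of the arginine sensor, fell by 0.68 ± 0.11 (adjusted p = 0.00303). Of 7 tested secreted stress factors 6 rose and 0 fell (median 1.13). ADM2, a peptide hormone of the calcitonin family, had 7.91, 6.09, 3.03 and 17.2 CPM with MYCi975 and 0.957, 0.5, 0.366 and 0.667 CPM with vehicle and rose by 3.70 ± 0.24 (adjusted p = 1.53e-06). STC2, a stanniocalcin, had 213, 212, 148 and 288 CPM with MYCi975 and 83.9, 93.6, 101 and 60.2 CPM with vehicle (1.33 ± 0.18, adjusted p = 7.25e-04). The angiogenic factor VEGFA rose by 0.72 ± 0.09, GDF15, a circulating stress signal, by 1.13 ± 0.25, STC1 by 0.94 ± 0.21 and INHBE, an activin subunit, by 1.91 ± 0.51. The INHBE call, at 0.481 to 1.41 CPM with MYCi975 and 0.0351 to 0.333 CPM with vehicle, was lost without any 1 of the 4 replicates. The STC1 call was lost without replicate 1 or 4 and the GDF15 call without replicate 2, and DESeq2 called neither STC1 nor GDF15.

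Over the 7 stress response lists joined, from transcription factors to secreted factors, 43 of 91 tested genes rose and 2 fell, with a median of 0.32. The size differed between pairs. The median log2 ratio within the pair was 0.26 in pair 1, 0.36 in pair 2, 0.10 in pair 3 and 0.57 in pair 4, against medians of 0.00, -0.01, 0 and 0 over all genes tested. Of the 43 genes that rose, 41 (95.3%) had their smallest ratio in pair 3 and 38 (88.4%) their largest in pair 4. Among all 847 genes that rose, those shares were 73.4% and 80.9%. TXNIP and ARRDC4 had ratios of -2.28 and -1.08 in pair 3 and -2.93 and -1.87 in pair 4. Mitochondrial RNA share was highest in replicate 3 and lowest in replicate 4 of both groups, and whether it has a part in these differences was not tested. The TGATGNAA core lay in a promoter window of 13 of the 33 stress genes that rose and have one, in 7 of the 37 other tested genes of those lists, and in 4.46% of all 27305 genes with a window.

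**Figure D2:**
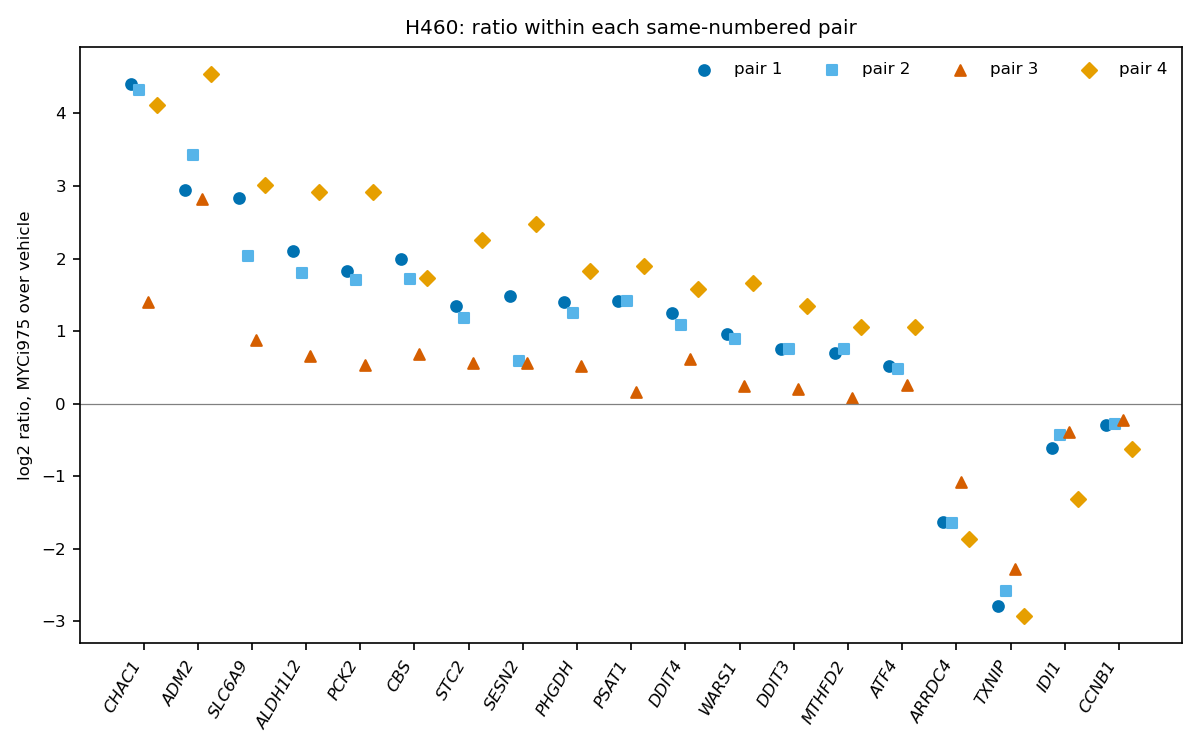
Log2 ratio of MYCi975 over vehicle (vertical axis) within each same-numbered pair of H460 libraries for 15 stress response genes on the left and 4 genes that fell on the right. Pair 3 lies lowest among the stress genes and pair 4 usually highest, while TXNIP ranges only between -2.28 and -2.93.

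Endoplasmic reticulum genes did not move one way. Of 26 tested, 3 rose and 2 fell, against 4.26% and 1.1% of all genes tested. XBP1, the factor spliced by IRE1, rose by 0.59 ± 0.11, and HERPUD1 and EDEM1, parts of the degradation route for misfolded proteins, rose by 0.49 ± 0.10 and 0.51 ± 0.11. The chaperone-side genes MANF and DNAJC3 fell by 0.45 ± 0.10 and 0.33 ± 0.09. HSPA5, the main luminal chaperone (BiP), had 679, 812, 1075 and 989 CPM with MYCi975 and 783, 943, 1101 and 1104 CPM with vehicle, lower in all 4 pairs without passing (-0.15 ± 0.08, adjusted p = 0.284, and 0.0124 in replicates 1 and 2 alone). Of 18 heat shock chaperone genes 3 fell and 0 rose (median -0.23), with HSPE1, the mitochondrial co-chaperonin, at -0.42 ± 0.08, DNAJB4 at -0.38 ± 0.08 and BAG3 at -0.31 ± 0.08. Of the 8 genes called here only XBP1 kept its call without each replicate in turn, and the number of heat shock genes that fell was 1 without replicate 1 or 2 and 12 without replicate 3.

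Because the series concerns mitochondrial function, genes of the organelle were examined list by list. None of 37 nuclear complex I genes, 38 genes of complexes II to V, 76 mitochondrial ribosomal protein genes, 17 genes of mitochondrial biogenesis and 17 of dynamics and mitophagy passed. Over these 185 genes the median was -0.04, with values between -0.35 and 0.32. At an unadjusted p below 0.05 the 5 lists held 2, 3, 8, 6 and 3 genes, and DESeq2 called 0 in each. These counts are not set against all genes tested, whose share below that p is not reported here. Among 21 chaperones, proteases and import genes LONP1, the matrix protease, rose by 0.43 ± 0.10, a call lost without replicate 1 or 4, and HSPE1 fell as given above. Of 13 mitochondrially encoded mRNAs MT-ND4L rose by 0.31 ± 0.08. It overlaps MT-ND4 by a few bases on the same strand, and its call was lost without replicate 1, 2 or 3. Mitochondrially encoded counts were mostly rRNA, at 9.07 to 19.1% of a library's counts, against 2.35 to 3.28% for the 13 mRNAs. The share of counts from all mitochondrially encoded genes was 17.6 ± 4.34% with MYCi975 and 16.8 ± 3.76% with vehicle (SD, n = 4 each). The mean difference within pairs was 0.80 percentage points (exact sign-flip permutation test, two-sided p = 0.25, where the smallest possible is 0.13). For the 13 mRNAs alone it was 0.19 points, at that smallest exact p. Among 26 genes of the TCA cycle and pyruvate use, PCK2 rose as given above and PDK1, which inhibits pyruvate dehydrogenase, rose by 0.49 ± 0.10, a call lost without replicate 1 or 2. Of 23 glycolysis genes 1 was called, the neuronal enolase gene ENO2 (0.45 ± 0.11), against 5.36% of all genes tested. The ENO2 call was lost without replicate 1, 2 or 4 and in DESeq2.

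**Figure D3:**
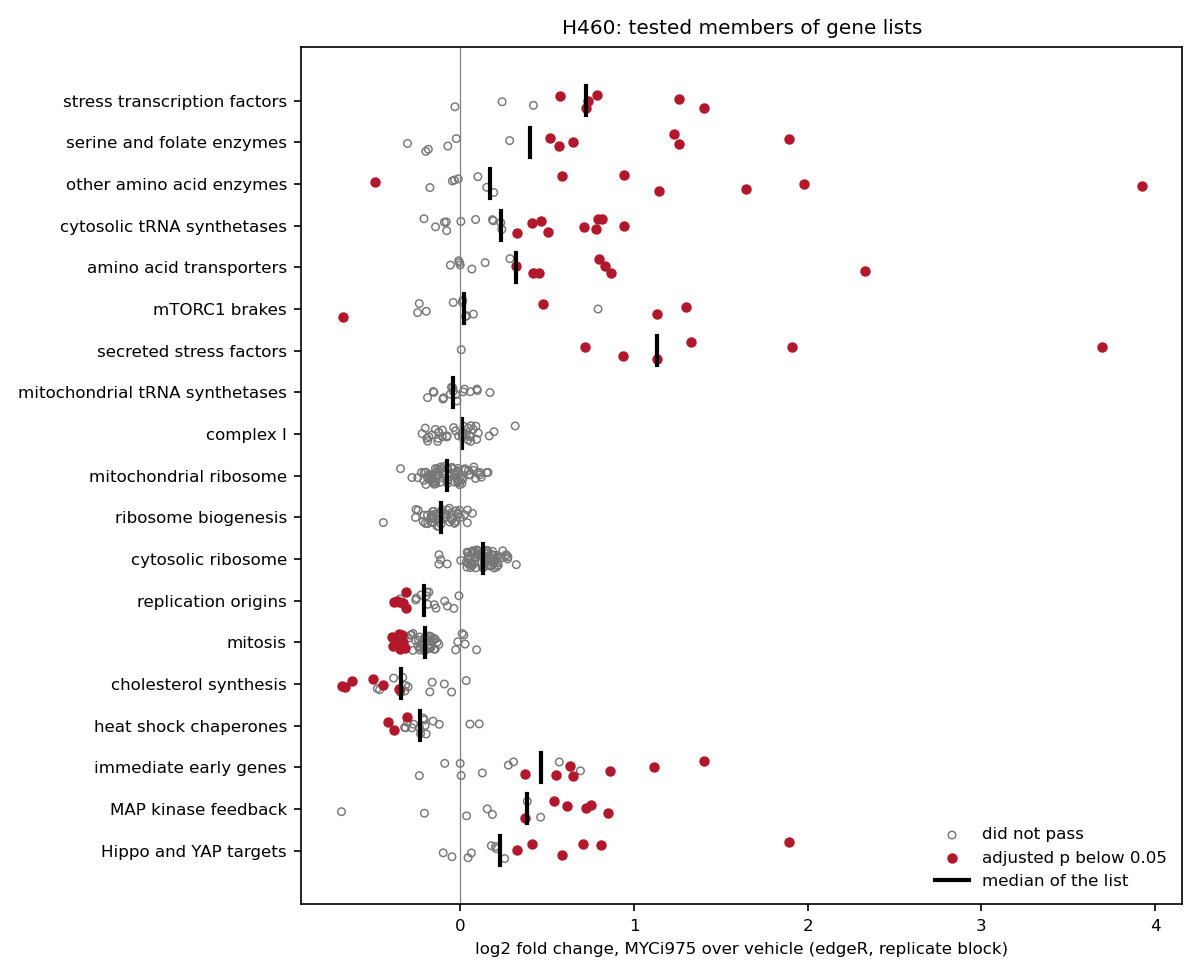
Log2 fold change of MYCi975 over vehicle (horizontal axis) for every tested member of 19 gene lists, with members of adjusted p below 0.05 filled and the list median as a bar. Filled points lie mostly to the right in the 7 stress lists, the lists of mitochondrial tRNA synthetases, complex I, the mitochondrial ribosome, ribosome biogenesis and the cytosolic ribosome hold none, and those of replication, mitosis and cholesterol synthesis lie to the left of 0.

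Some cell cycle genes were lower by small amounts. Of 20 genes of replication origins and the MCM helicase 6 fell, of 30 fork and repair genes 1 fell, of 48 mitotic genes 8 fell, and 0 rose in any of these lists. In all 92 of the 98 had values below 0, with a median of -0.18, and 1.1% of all genes tested fell. MCM4, a helicase subunit, had 285, 306, 337 and 237 CPM with MYCi975 and 364, 375, 374 and 393 CPM with vehicle (-0.38 ± 0.09, adjusted p = 0.022). CCNB1, cyclin B1, had 180, 186, 204 and 161 CPM with MYCi975 and 221, 227, 237 and 248 CPM with vehicle, also without overlap (-0.35 ± 0.08, adjusted p = 0.0176). PLK1, a mitotic kinase, was at -0.39 ± 0.08, KIF20A, a kinesin of cytokinesis, at -0.40 ± 0.09, PCNA, the sliding clamp, at -0.36 ± 0.09, MCM2 at -0.31 ± 0.08 and ORC1, of the origin complex, at -0.33 ± 0.09. All 7 lost their call without replicate 1 and without replicate 2, and MCM4, PCNA, MCM2 and ORC1 also without replicate 4. Of the 98 genes 15 fell in all, but 0 without replicate 1, 1 without replicate 2, 29 without replicate 3 and 6 without replicate 4. CDKN2C, an inhibitor of CDK4 and CDK6, fell by 0.58 ± 0.10 (adjusted p = 0.00377) and CCND3, cyclin D3, by 0.33 ± 0.08, a call lost without replicate 1, 2 or 4. CDKN1A, the p21 inhibitor, had 55.9, 59.0, 36.8 and 45.2 CPM with MYCi975 and 42.3, 40.1, 38.5 and 18.3 CPM with vehicle, with pair 3 lower (0.54 ± 0.15, adjusted p = 0.0476). Its call was lost without replicate 1, 2 or 4, in DESeq2 and with scaling that leaves out mitochondrial RNA. In bulk RNA, fewer cells in a phase and less RNA per cell cannot be told apart.

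Of 20 enzymes of cholesterol synthesis 6 fell and 0 rose, with 19 of 20 values below 0 and a median of -0.34. Of all genes tested 1.1% fell. IDI1, the isopentenyl diphosphate isomerase, had 26.2, 30.3, 35.1 and 23.7 CPM with MYCi975 and 40.1, 40.8, 45.8 and 58.8 CPM with vehicle, without overlap (-0.68 ± 0.12, adjusted p = 0.00432). HMGCS1, at the pathway's head, fell by 0.63 ± 0.14, SQLE, the squalene epoxidase, by 0.50 ± 0.10, and DHCR7 and SC5D, of the last steps, by 0.45 ± 0.09 and 0.35 ± 0.09. INSIG1, the sterol-sensing brake on SREBP, had a value of -0.60 ± 0.17 (adjusted p = 0.0534), which passed without replicate 3, with RLE scaling, with no filter on low counts, in replicates 1 and 2 alone and in the fits of 12 and 32 libraries. The median ratio of the 20 enzymes was -0.34 in pair 1, -0.25 in pair 2, -0.05 in pair 3 and -0.76 in pair 4, and the number that fell was 1 without replicate 1, IDI1, and 10 without replicate 3. Of the 6 genes IDI1 alone kept its call without each replicate, and DESeq2 did not call HMGCS1. VLDLR, a lipoprotein receptor, had 20.5, 22, 12 and 33.5 CPM with MYCi975 and 6.22, 6.45, 7.93 and 5.72 CPM with vehicle and rose by 1.67 ± 0.21 (adjusted p = 5.34e-04). ABCG1, a sterol exporter, rose by 0.89 ± 0.18, a call lost without replicate 2.

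In the NRF2 and antioxidant list 3 of 24 genes fell and 1 rose, against 1.1% and 4.26% of all genes tested. HMOX1, haem oxygenase, had 30.3, 32.5, 37.7 and 10.9 CPM with MYCi975 and 49.7, 51.8, 50.4 and 24.9 CPM with vehicle, lower in every pair although vehicle replicate 4 lay among the MYCi975 values (-0.73 ± 0.10, adjusted p = 0.00108). OSGIN1, a stress-induced growth inhibitor, fell by 0.45 ± 0.09, a call lost without replicate 2, GCLC fell as given above, and ABCC3, a drug exporter, rose by 0.52 ± 0.09. Of 8 tested genes of the aryl hydrocarbon receptor 4 rose and 0 fell. CYP1B1, a classical target, had 417, 426, 335 and 453 CPM with MYCi975 and 265, 239, 287 and 215 CPM with vehicle (0.70 ± 0.11, adjusted p = 0.00203). AHR itself, the receptor, was higher in all 4 pairs (0.35 ± 0.07, adjusted p = 0.00887), with 127 to 132 CPM in MYCi975 replicates 1 and 2 and 35.6 to 46.4 CPM in replicates 3 and 4, and its call was lost without replicate 1 or 2. AHRR, its repressor, and TIPARP, a feedback enzyme, rose by 0.56 ± 0.13 and 0.49 ± 0.09. The TIPARP call was lost without replicate 2 and the AHRR call without replicate 1 or 2 and in DESeq2. AHRR, too, was at unequal levels (19.6 and 23.4 CPM in MYCi975 replicates 1 and 2, 1.28 and 0.724 CPM in 3 and 4). The AHRR ratio was -0.02 in pair 4, and its value was 0.65 within replicates 1 and 2 and 0.18 within 3 and 4. CYP1B1, AHR and TIPARP overlap antisense genes. CYP1B1, AHR and AHRR also share exon bases with genes on their own strand, which for AHRR is PDCD6. Among 30 lysosome and autophagy genes WIPI1 and ULK1, of autophagosome formation, rose by 0.82 ± 0.16 and 0.44 ± 0.09, and ATP6V0D1, a proton pump subunit, fell by 0.31 ± 0.08. Of these 3 WIPI1 alone kept its call without each replicate, and DESeq2 did not call ATP6V0D1.

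Signalling genes rose in several lists at shares above the 4.26% of all genes tested. Of 16 tested immediate early genes 7 rose and 0 fell, of 13 feedback genes of MAP kinase signalling 6 rose and 0 fell, and of 14 Hippo pathway and YAP target genes 6 rose and 0 fell. Some genes are in more than 1 list, and the highest value of the immediate early list, 1.40, equals that of ATF3 given above. DUSP4, a MAP kinase phosphatase, had 180, 163, 148 and 260 CPM with MYCi975 and 108, 98.6, 118 and 120 CPM with vehicle (0.73 ± 0.10, adjusted p = 9.82e-04). DUSP6 rose by 0.85 ± 0.15, PHLDA1 by 0.75 ± 0.10 and SPRY4, an inhibitor of receptor tyrosine kinase signalling, by 0.54 ± 0.09. The immediate early factors KLF2, JUNB and NR4A1 rose by 0.86 ± 0.17, 0.63 ± 0.16 and 1.11 ± 0.28, and NR4A1 had 23.8, 20.3, 24.3 and 128 CPM with MYCi975 and 12.5, 16.2, 18.9 and 19.0 CPM with vehicle, so that 1 library held most of the difference. The JUNB and NR4A1 calls were lost without replicate 1 or 2 and in DESeq2, and 3 immediate early genes were called without replicate 1. ANKRD1, a YAP target, had 26.9, 22.9, 23.5 and 47.4 CPM with MYCi975 and 7.4, 7.87, 10.7 and 5.62 CPM with vehicle (1.89 ± 0.21, adjusted p = 2.69e-04). The matrix-linked targets CCN2 and CCN1 rose by 0.81 ± 0.13 and 0.58 ± 0.12 and CRIM1 by 0.71 ± 0.10. The CCN1 call was lost without replicate 2 and in DESeq2.

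Of 11 tested cytokine genes 5 rose and 0 fell, against 4.26% and 1.1% of all genes tested. CXCL8, the neutrophil attractant interleukin 8, had 140, 124, 151 and 458 CPM with MYCi975 and 52.8, 45.6, 98.8 and 56.6 CPM with vehicle, without overlap (1.60 ± 0.25, adjusted p = 0.00209). IL1A, interleukin 1 alpha, rose by 0.79 ± 0.12 and TNFAIP3, a brake on NF-kappaB, by 0.61 ± 0.13, which DESeq2 did not call. The chemokines CXCL1 and CXCL2 rose by 0.36 ± 0.08 and 0.35 ± 0.08, calls lost without replicate 1 or 2 and, for CXCL2, without replicate 4. CD274, which encodes PD-L1, had 18.6, 15.7, 18.5 and 43.8 CPM with MYCi975 and 8.76, 7.41, 11.8 and 7.97 CPM with vehicle (1.33 ± 0.20, adjusted p = 0.00193). Of 7 leukocyte markers 3 were tested, CD14, CD68 and CSF1R, and 0 were called. The others had under 10 counts in every library, among them PTPRC, CD3E and LYZ. The summed level of the list was 1.05 to 26.9 CPM with MYCi975 and 2.19 to 21.8 CPM with vehicle. CD68, a lysosomal protein abundant in macrophages, made up most of the high end, at 25.9, 22.8, 0.55 and 0.362 CPM with MYCi975 and 20.6, 20, 0.61 and 0.351 CPM with vehicle, and the part of these markers in the cytokine values was not tested. Of 19 apoptosis genes 5 rose and 0 fell. PMAIP1 (NOXA) and HRK, activators of cell death, rose by 0.76 ± 0.14 and 2.06 ± 0.38, HRK at 0.55 to 0.859 CPM with MYCi975 and 0.147 to 0.203 CPM with vehicle. The inhibitors BCL2L1, CFLAR and MCL1 rose by 0.41 ± 0.10, 0.53 ± 0.14 and 0.40 ± 0.11, calls lost without replicate 1, 2 or 4 and, for CFLAR and MCL1, in DESeq2. In the insulin-like growth factor list 3 of 8 rose, the binding proteins IGFBP4 (1.06 ± 0.20, not called in DESeq2) and IGFBP2 (0.38 ± 0.09, lost without replicate 1, 2 or 4) and IRS1, a receptor substrate (0.53 ± 0.07). Among 11 epithelial and mesenchymal state genes KRT19, a keratin, rose by 0.43 ± 0.08, FN1, fibronectin, by 0.47 ± 0.09 and ITGB4, an integrin of hemidesmosomes, by 1.15 ± 0.26, while SNAI2, a mesenchymal transcription factor, fell by 0.53 ± 0.14. Of these 4 each lost its call without at least 1 replicate.

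Other genes were among the 12 largest rises and falls at a mean of at least 5 CPM. RPS6KA2, a ribosomal S6 kinase of the MAP kinase pathway, had 7.49, 7.23, 3.12 and 18.6 CPM with MYCi975 and 1.62, 1.21, 1.26 and 1.23 CPM with vehicle (2.61 ± 0.28, adjusted p = 2.08e-04). UNC5B, a netrin receptor, rose by 2.03 ± 0.31, PAPPA2, a protease of IGF binding proteins, by 1.93 ± 0.28, TSC22D3, the glucocorticoid-induced leucine zipper, by 1.80 ± 0.22, THSD4, a matrix protein, by 1.69 ± 0.20, PRDM8, a nuclear regulator, by 1.68 ± 0.19 and CACNG8, a channel subunit, by 1.66 ± 0.20. All of these kept their call without each replicate in turn. The falls were smaller after the first pair of genes. COL1A1, the collagen chain also listed as a fibroblast marker, had 3.54, 4.63, 6.32 and 1.3 CPM with MYCi975 and 6.44, 7.16, 7.11 and 7.05 CPM with vehicle (-0.91 ± 0.24, adjusted p = 0.039). The fibroblast genes COL1A2 and DCN had 0 counts in every library and LUM at most 7. The others were counted in all, COL3A1 at 226 to 598, PDGFRA at 71 to 236, PDGFRB at 35 to 87 and THY1 at 22 to 49. Of the 8 fibroblast markers 5 were tested, and their summed level was 16.7 to 33.0 CPM with MYCi975 and 21.9 to 36.6 CPM with vehicle. RASAL1, a Ras GTPase activator, fell by 0.84 ± 0.15, and GPR22, CPLX2, KCNK12 and ARRB1, a receptor, a synaptic protein, a potassium channel and beta-arrestin 1, fell by 0.73 ± 0.20, 0.72 ± 0.18, 0.71 ± 0.15 and 0.65 ± 0.16. Of the falls, COL1A1, GPR22, CPLX2, KCNK12 and ARRB1 each lost their call without at least 2 of the replicates, and COL1A1, GPR22 and CPLX2 also in DESeq2.

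Whether H460 responded differently from the other 3 lines was tested in 1 fit of 32 libraries as its log2 fold change minus the mean of those in H838, H1703 and H1755. Of 24980 genes 316 (1.27%) passed, 258 with a higher value in H460 (1.03%) and 58 with a lower one (0.232%). The count fell to 22 without replicate 1 and to 98 without replicate 2. CHAC1 rose by 3.95 ± 0.38 in H460, against 3.33 ± 0.42 in H838, 0.97 ± 0.23 in H1703 and 1.33 ± 0.50 in H1755 (difference 2.07 ± 0.49, adjusted p = 0.0322), so that H838 was close to H460. ADM2 had a like pattern, at 3.71 in H460 and 3.25, 1.11 and 1.19 in the other lines (difference 1.87 ± 0.42, adjusted p = 0.0242). SLC6A9 was lower in all 3 other lines, at 2.36 in H460 and 0.62, 0.32 and 0.50 in H838, H1703 and H1755 (difference 1.88 ± 0.33, adjusted p = 0.00473), as was SLC7A2 at 0.88 in H460 and -0.10, 0.01 and -0.31 in the others (1.01 ± 0.13, adjusted p = 3.46e-04). Over the joined stress lists 8 of 94 genes were higher in H460 and 3 lower, and the medians for H460, H838, H1703 and H1755 were 0.34, 0.24, 0.26 and 0.12. GDF15 ran the other way, at 1.15 ± 0.33 in H460 and 4.33 ± 0.72, 2.92 ± 0.44 and 2.74 ± 0.90 in H838, H1703 and H1755 (difference -2.18 ± 0.55, adjusted p = 0.0478), a call lost without replicates 1, 2 or 4, without H838 and with RLE scaling.

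Of 14 Hippo pathway and YAP target genes 7 were higher in H460 and 0 lower. ANKRD1 rose by 1.91 ± 0.20 in H460, against 0.13 ± 0.17 in H838, 1.19 ± 0.39 in H1703 and 0.35 in H1755 (difference 1.36 ± 0.26, adjusted p = 0.00695). CCN2 and CCN1 differed by 0.70 ± 0.14 and 0.52 ± 0.13, CRIM1 by 0.59 ± 0.10 and the angiomotin-like and LIM genes AMOTL1, AMOTL2 and AJUBA by 0.39 ± 0.09, 0.50 ± 0.12 and 0.48 ± 0.11. The list had 0 such genes without replicate 1 and 2 without replicate 2. AJUBA did not itself pass in H460 (0.27 ± 0.10), and was at -0.05, -0.37 and -0.21 in H838, H1703 and H1755. Of the other large differences, PRICKLE1, a planar polarity gene, was at 1.47 in H460 and 0.08, -0.23 and -0.00 in the other lines (1.52 ± 0.21, adjusted p = 3.46e-04), and MYPN, a sarcomere protein, at 1.21 in H460 and -0.02, -0.36 and -0.09 in the others (1.37 ± 0.18). MARCHF4, a ubiquitin ligase, and CPA4, a carboxypeptidase, differed by 1.45 ± 0.26 and 1.54 ± 0.28. GNGT1 differed by 1.61 ± 0.29, but it overlaps TFPI2 on the opposite strand and the strand setting of the counting is not given in the sources used here. TNFAIP3 was at 0.62 in H460 and -0.05, -0.43 and -0.68 in the others (1.01 ± 0.14).

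ARRDC4 fell in H460 (-1.55 ± 0.21) with values of -0.01 ± 0.31 in H838, 0.08 ± 0.28 in H1703 and -0.80 ± 0.39 in H1755 (difference -1.30 ± 0.29, adjusted p = 0.0231), a call lost without replicate 1, 2 or 4. TXNIP was at -2.64 ± 0.20 in H460 and at -0.02 ± 0.38, -2.14 ± 0.97 and -1.04 ± 0.21 in the others, and its difference of -1.57 ± 0.62 did not pass (adjusted p = 0.29). HMOX1 was lower in H460 (-0.72 ± 0.10) than in H838 (-0.20 ± 0.10), H1703 (0.49 ± 0.09) and H1755 (-0.15 ± 0.11), with a difference of -0.77 ± 0.11 (adjusted p = 9.51e-04). The cholesterol enzymes IDI1, SQLE and SC5D differed by -0.54 ± 0.12, -0.46 ± 0.10 and -0.47 ± 0.10, 3 of 20 in their list, and 0 did without replicate 1. PPP1R3B, RBM20 and IL6, a glycogen phosphatase subunit, a splicing factor and interleukin 6, differed by -0.93 ± 0.18, -0.90 ± 0.16 and -0.76 ± 0.19. Each of these 3 had its highest value in H1703, at 1.58, 0.98 and 0.96.

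**Figure D4:**
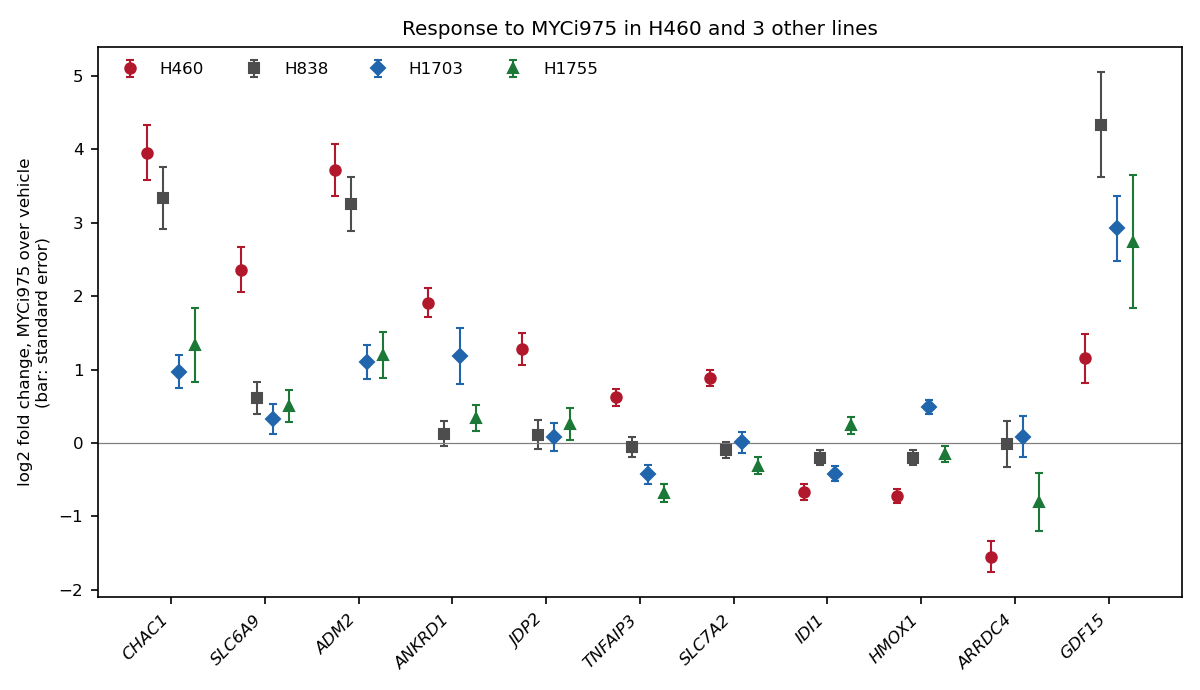
Log2 fold change of MYCi975 over vehicle (vertical axis, bars are standard errors) in H460 and the other 3 lines for 11 genes, from 1 fit of 32 libraries. CHAC1 and ADM2 are high in H460 and H838, SLC6A9, JDP2 and SLC7A2 are highest in H460, and GDF15 is lowest in H460.

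The vehicle libraries of H460 also serve its 4 libraries with 25 µM TMP195, a class IIa HDAC inhibitor of another structure and target. The 2 comparisons share those controls and the doses differ, so values are set side by side. In a fit of all 12 libraries CHAC1 was at 3.97 ± 0.40 with MYCi975 and 3.28 ± 0.42 with TMP195, ADM2 at 3.69 ± 0.23 and 3.24 ± 0.24, and ATF4 at 0.57 ± 0.09 and 0.62 ± 0.09. TXNIP was at -2.62 ± 0.15 with MYCi975 and -0.25 ± 0.13 with TMP195, ARRDC4 at -1.54 ± 0.14 and -0.18 ± 0.13, and IDI1 at -0.67 ± 0.12 and 0.53 ± 0.11. In that fit CHAC1, ADM2 and ATF4 passed the threshold with each agent. TXNIP and ARRDC4 did not pass with TMP195 (adjusted p = 0.274 and 0.456), and IDI1 was higher with it (adjusted p = 0.00655). The difference between the agents was not tested.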

How the data were processed

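RNA of the H460 cells was purified on NucleoSpin columns and made into SMARTer stranded total RNA libraries, per the labels' protocols. Trimmomatic, STAR, featureCounts and the builds GRCh38 and hg38 are named per the submitters' processing notes, while tool versions, the gene annotation and whether counting used strand are not given in the sources used here. The deposited file holds raw counts of reads per gene, not normalized by the authors, for 60649 genes. Of its gene IDs, 58337 matched GENCODE 29 and 42066 had a symbol. Of its columns of per-sample values, 0 could not be matched to a sample.

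Counts of the 8 libraries were fitted in edgeR 4.0.16 (R 4.3.3, limma 3.58.1) by the quasi-likelihood test with TMM scaling, filterByExpr by group and the replicate number as a block. This left 19891 genes and 3 residual degrees of freedom. P-values were adjusted by Benjamini-Hochberg over all of them and called at 0.05. Standard errors are the log2 fold change over the square root of F. Levels are CPM on TMM-scaled totals, and pair ratios are log2 differences of CPM with a prior count of 2. The 32 libraries of the 4 lines were fitted with line and replicate number as blocks. Tables were handled in Python 3.11.15 with pandas 2.3.3, and figures drawn with matplotlib 3.10.9.

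Same-numbered libraries deviated from their group means together, with correlations of 0.919 to 0.944. Pairs with another number had 0.812 to 0.922 within replicates 1 and 2 or within 3 and 4, and -0.915 to -0.886 across them. Within replicates 1 and 2 the same-numbered pairs had 0.944 and 0.928, against 0.921 and 0.922 for the others. In replicates 3 and 4 they had 0.927 and 0.919, against 0.812 and 0.835. Same-numbered libraries were thus the closest in each set, by little in replicates 1 and 2. What a shared number stands for was not tested. The shared numbers come from the labels, which name no animal, day or culture. No 2 replicates agreed within sampling noise: the chi-square per degree of freedom was 10.2 and 11.2 between replicates 1 and 2 and 45.5 to 171 otherwise.

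Named genes were the 12 largest rises and falls among called genes with a mean of at least 5 CPM, at least 10 counts in every library of a group and the same sign in all 4 pairs. To these came key members and up to 8 others of 59 lists of 1160 genes, and the 6 largest line differences each way. A few list members are not reported here by name. Members, lists and tests were chosen with earlier results of these data known. The fits were tested on simulated data. Alternatives were no replicate block, DESeq2 1.42.0, RLE scaling, no filter on low counts, scaling factors computed without mitochondrial RNA and other very abundant non-coding RNA, each replicate left out, replicates 1 and 2 or 3 and 4 alone, 12 libraries with TMP195, and, chosen after seeing the data, a term for replicates 1 and 2 against 3 and 4.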

Additional observations from a re-analysis of the deposited data

Results flagged for a closer look

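Among 316 sets of 4 libraries of 1 group, 37 had a library far from the other 3, where chance gives about 1 set in 20. In 31 of them it was replicate 4, 22 times the MYCi975 library and 9 times the vehicle library, and whether this has a common source was not tested. MYCi975 replicate 4 was the highest in each of the following, with the range of the other 3 MYCi975 libraries after it. Among stress genes ATF3 had 9.27 CPM (4.25 to 5.01), ATF5 49.6 CPM (27.3 to 28.9), GDF15 15.1 CPM (9.11 to 9.92) and SLC38A2 606 CPM (206 to 272). NDRG1, of the hypoxia list, had 41.5 CPM (17.9 to 19.8) and CTPS1, of nucleotide synthesis, 366 CPM (200 to 212). Among signalling and YAP target genes it had 128 CPM of NR4A1 (20.3 to 24.3), 42.3 CPM of JUNB (26.8 to 29.2), 36.4 CPM of DUSP6 (8.49 to 11.7), 47.4 CPM of ANKRD1 (22.9 to 26.9), 131 CPM of CCN1 (73.9 to 78.5) and 210.0 CPM of CCN2 (72.6 to 91.6). Among cytokine, survival and other genes it had 458 CPM of CXCL8 (124 to 151), 43.8 CPM of CD274 (15.7 to 18.6), 40.4 CPM of BCL2L1 (29.1 to 30), 63.8 CPM of CFLAR (39.2 to 43), 16.7 CPM of ITGB4 (3.91 to 4.85), 125 CPM of GNGT1 (25.9 to 39.4), 22.3 CPM of PRDM8 (9.18 to 9.81), 29.1 CPM of PRICKLE1 (12.1 to 13.5) and 42.1 CPM of SC5D (33.9 to 35.2). SNAI2 was instead lowest in MYCi975 replicate 4, at 5.1 CPM (14.1 to 15.5). ARRDC4 was highest in MYCi975 replicate 3, at 4.71 CPM (3.11 to 3.26).

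Vehicle replicate 4 was lowest for CDKN1A at 18.3 CPM, for HMOX1 at 24.9 CPM and for JDP2 at 4.0 CPM. It was highest for PMAIP1 at 35.5 CPM, PPP1R3B at 34.1 CPM, SC5D at 67.4 CPM, DHCR7 at 35.2 CPM, KCNK12 at 8.56 CPM and ACSS2 at 12.4 CPM. Other vehicle libraries stood apart for COL1A1 (6.44 CPM in replicate 1, lowest), PYCR1 and RPS6KA2 (92.4 and 1.62 CPM in replicate 1, highest), SQLE (47.8 CPM in replicate 2, lowest) and ENO2 (7.6 CPM in replicate 3, highest).

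The response in H460 differed from the mean of the other 3 lines, by the edgeR test of that difference, for 38 of the genes named here. On the log2 scale it was higher in H460 among stress genes for CHAC1 (2.07), SLC6A9 (1.88), ADM2 (1.87), JDP2 (1.13), SLC7A2 (1.01), SLC38A2 (0.48) and SLC7A5 (0.42). It was higher for the YAP targets ANKRD1 (1.36), CCN2 (0.70), CRIM1 (0.59), CCN1 (0.52), AMOTL2 (0.50), AJUBA (0.48) and AMOTL1 (0.39). It was higher for GNGT1 (1.61), CPA4 (1.54), PRICKLE1 (1.52), MARCHF4 (1.45), MYPN (1.37), CACNG8 (1.19), TNFAIP3 (1.01), THSD4 (0.96), IGFBP4 (0.89), JUNB (0.75), IRS1 (0.66), CYP1B1 (0.57), PHLDA1 (0.56) and BCL2L1 (0.40). It was lower in H460 for GDF15 (-2.18), ARRDC4 (-1.30), PPP1R3B (-0.93), RBM20 (-0.90), HMOX1 (-0.77), IL6 (-0.76), IDI1 (-0.54), SC5D (-0.47), SQLE (-0.46) and GCLC (-0.37).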

How the results depend on the processing

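Counts of called genes depended on how replicates entered the fit, and the cause was not tested beyond each setting's own construction. Of the 1066 genes called, 847 higher and 219 lower, and of the 149 list members, edgeR without the replicate block called 0, 0, 0 and 0, although edgeR's unadjusted p was below 0.05 for 1694 genes and DESeq2 called 371 without the block. The term for replicates 1 and 2 against 3 and 4, chosen after seeing the data, gave 36, 34, 2 and 12. Replicates 1 and 2 alone gave 2192, 1320, 872 and 304, and replicates 3 and 4 alone 2, 1, 1 and 2, the 2 being TXNIP and ADM2. The fit of 12 libraries gave 1993, 1381, 612 and 250, with 1060 of the 1066 shared, and no filter on low counts gave 1701 genes, 455 lower and 231 list members. Leaving out 1 replicate, which removes 2 of 8 libraries, gave 410 to 1440 genes, 383 to 1036 higher, 27 to 404 lower and 71 to 215 list members, lowest without replicate 1 and highest without replicate 3. DESeq2 with the block called 862, of which 819 were shared. The 316 line differences became 1 without the replicate block, 718 with no filter, 453 without H838 and 22 to 345 without a replicate. Of 145 called genes named here, 72 stayed called without each replicate. Of 1056 called genes fitted both in replicates 1 and 2 and in 3 and 4 all had 1 direction in both. They were called from these same libraries, so their direction in both was largely set by that choice and is no separate check. The mitochondrial share difference stayed above 0 in every setting. Of genes not called, ATF5 was at -0.0027 in replicates 1 and 2 alone, SLC7A11 at -0.0275 in 3 and 4 alone, and MLX at 0.0222 in 3 and 4 alone and between -0.0435 and 0.02045 without a replicate. With 3 residual degrees of freedom, a gene that did not pass is not shown to be unchanged.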

Other observations

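Of 27 tested p53 target genes 3 rose and 0 fell, CDKN1A and PMAIP1 as given above and GADD45A, a growth arrest gene, by 0.54 ± 0.12, a call lost without replicate 1. Of 16 hypoxia response genes 4 rose and 1 fell, against 4.26% and 1.1% of all genes tested. VEGFA and PDK1 are given above, NDRG1, a stress-induced gene, rose by 0.72 ± 0.16 and EPAS1, which encodes HIF-2 alpha, by 0.42 ± 0.11, while EGLN3, an oxygen-sensing hydroxylase, fell by 0.37 ± 0.10. NDRG1 had 19.8, 18.9, 17.9 and 41.5 CPM with MYCi975 and 14.3, 12.3, 15.7 and 14.2 CPM with vehicle. The NDRG1, EPAS1 and EGLN3 calls were each lost without at least 1 replicate, and those of NDRG1 and EGLN3 also in DESeq2.

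Replication-dependent histone genes, of which 25 were tested, had 22 values below 0 and a median of -0.18. The 3 called, H2AC13, H2BC17 and H4C4, fell by 0.40 ± 0.08, 0.36 ± 0.08 and 0.34 ± 0.09, and each call was lost without replicate 1. They belong to families of near-identical copies, so reads may be split between members. Of 32 proteasome subunits 29 had values below 0 (median -0.12) and PSMD12 fell by 0.29 ± 0.07. Of 19 translation factors EEF1B2, of elongation factor 1, rose by 0.28 ± 0.08, and of 13 fatty acid synthesis enzymes ACSS2, which makes acetyl-CoA from acetate, rose by 0.46 ± 0.10. The PSMD12, EEF1B2 and ACSS2 calls were lost without replicate 1, 2 or 4. Over all genes tested 4.26% rose and 1.1% fell. Of 12 BMP and TGF-beta targets CCN2 alone rose. Of 11 snoRNA host genes and of 7 class IIa HDAC and MEF2 genes 0 were called in edgeR and 0 in DESeq2, with 3 and 2 at an unadjusted p below 0.05. Here too the share of all genes below that p is not reported. Of 5 tested cyclin-dependent kinase inhibitors 1 rose and 1 fell, and of 19 D and E cyclin, E2F and pocket protein genes 1 fell, as given above.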
